A study of Drosophila melanogaster with 837 samples.

Results

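Single cells that carried transcripts of neuronal genes were examined within a sort of muscle cells from Drosophila melanogaster embryos. The cells were chosen by measured reads. A cell of the series table was kept when at least 500 genes had at least 10 reads, and a kept cell was a member when at least 2 of 7 neuronal genes (nSyb, Syt1, brp, para, cac, Rdl and fne, called rule genes below) had at least 10 reads each. Of the 837 cells, 809 were kept and 114 of these were members. Plate 17 held 13 members among 61 kept cells and the other 14 plates held 101 among 748, so that 48 and 647 other kept cells remained for comparison. Throughout, a gene was counted as detected in a cell from 10 reads on.

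All cells belonged to 1 group, labelled Mhc-GFP+ DAPI- DRAQ5+. They came from the Mhc-TAU-GFP stock, in which GFP is driven with Myosin heavy chain (Mhc), a sarcomere gene, and from embryos aged 19 to 20 h that were pooled and broken up with trypsin. Cells with GFP and the DNA stain DRAQ5, but without DAPI, which marks damaged cells, were placed singly into wells, and cDNA was made by a Smart-seq2 protocol with extra primers for the Hox genes at reverse transcription and PCR. The GFP label reports Mhc promoter activity and not muscle identity as such, the embryos were pooled, and the labels name no animals. All cells therefore form 1 sample, no difference below was tested, and plates are a technical unit. Shares of cells are given with exact Clopper-Pearson 95% intervals where they carry a comparison, and for a count of 0 the share that 3 counts would give is named as the largest that it allows. These intervals cover counting error only, since amplified reads carried no molecular identifiers and may be copies of 1 molecule.

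Neurons send signals by fusing synaptic vesicles with the membrane at active zones, and they are excitable because of voltage-gated sodium, potassium and calcium channels. Of the rule genes, nSyb encodes the vesicle SNARE of neurons, Syt1 the calcium sensor of release, and brp a scaffold of the active zone. The sodium channel para and the calcium channel cac carry the electrical side, Rdl is a subunit of a GABA-gated chloride channel, and fne is an RNA-binding protein of the ELAV family. Muscle cells of the late embryo receive input at neuromuscular junctions, where the glutamate of motoneurons meets postsynaptic receptors, and they are built from the sarcomere proteins that Mhc belongs to.

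Most of the selection rested on Syt1. Syt1 was detected in 661 of 809 kept cells (81.7%, 78.9 to 84.3), whether members or not, with a median of 32 reads where detected. The other rule genes were each detected in few kept cells, brp in 49, fne in 44, Rdl in 32, cac in 28, para in 22 and nSyb in 21. Of the members, 105 had Syt1 and 9 did not. Since Syt1 alone was nearly general, a cell mostly became a member by adding 1 further gene.

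The number of rule genes per cell showed this directly. No rule gene was detected in 124 kept cells and 1 in 571, whereas 90 members had 2, 10 had 3, 6 had 4, 1 had 5, 2 had 6 and 5 had all 7. Of the 90 members with 2 rule genes, 81 carried Syt1 and another gene, which was brp in 26, fne in 21, cac in 14, Rdl in 8, nSyb in 7 and para in 5. Membership thus stood for 2 rule genes in most cells and for a broad set in few. The rule asked for 10 reads, and 16 members had their second highest rule gene at 10 or 11 reads, while 24 cells outside had it at 8 or 9. The median of that second gene was 26 reads in the members and 0 in the other kept cells.

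Syt1 was spread unevenly over plates. It was detected in 26.2% of the kept cells of plate 17 and 15.2% of those of plate 15, against 64.8% to 100% on each of the other 13 plates. Members without Syt1 were mostly on plate 17, where 6 of 13 members lacked it, against 3 of 101 elsewhere. Asking for 2 of the 6 rule genes other than Syt1 left 33 cells, 10 of them on plate 17, an alternative chosen after seeing the data. That rule gave 16.4% of the kept cells of plate 17 and 3.07% of those on the other plates, in place of 21.3% (11.9 to 33.7) and 13.5%.

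The share of members per plate was 14.04% ± 9.01 (SD, n = 15 plates, a technical spread) with the lowest value, 5.56%, on plate 11 and the highest, 37.3%, on plate 14. Plate 14 was also the deepest, with a median of 1654810 reads per kept cell, and plate 17 the shallowest, with 348433. When every cell was thinned to the same 262436 reads before the rule was applied, 4 of 41 cells on plate 17 (9.76%) and 33 of 683 on the other plates (4.83%) met it. Cells with at least 4 rule genes were found on 9 plates, with 4 of the 14 on plate 17 and 3 on plate 14.

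**Figure D1:**
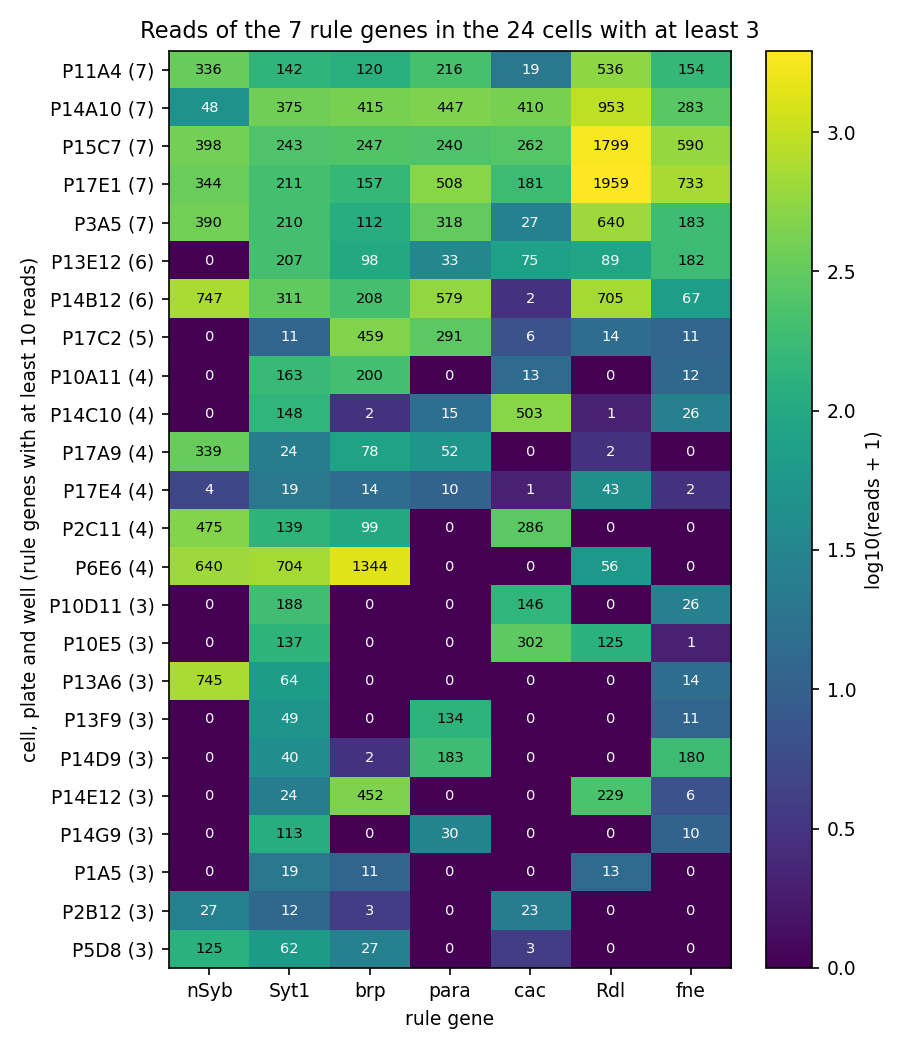
Reads of the 7 rule genes (columns) in the 24 members with at least 3 of them (lines, named by plate and well, with the number of rule genes in parentheses); colour is log10(reads + 1) and the number in each field is the read count. The 5 cells at the top hold all 7 genes, while cells with 3 often have 0 reads of the rest.

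The heat map of rule-gene reads shows the 24 cells with at least 3 rule genes. P17E1, named by its plate and well like all cells here, had 344 reads of nSyb, 211 of Syt1, 157 of brp, 508 of para, 181 of cac, 1959 of Rdl and 733 of fne. P15C7 had 398, 243, 247, 240, 262, 1799 and 590 reads of the same genes in that order. The other cells with all 7 rule genes were P3A5, P11A4 and P14A10, and their lowest counts were 27 reads of cac in P3A5, 19 of cac in P11A4 and 48 of nSyb in P14A10. Rdl was the most abundant rule gene in each of these 5 cells, with 536 to 1959 reads. These values chose the cells and are given as a description.

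Neuronal genes that the rule did not use were examined next, 108 in all, covering RNA-binding and neuronal fate genes, vesicle release, ion channels, transmitter synthesis and transport, receptors, and neuropeptides with their processing enzymes. In the other kept cells a median of 6 of these genes was detected per cell (range 0 to 20). Members with 2 rule genes had a median of 7 (2 to 20), and members with 3 had 11.5 (7 to 28). With at least 4 rule genes the median was 37 (11 to 78), and with all 7 it was 54 (41 to 78). The members with 2 rule genes therefore overlapped the other kept cells over their whole range, and the 5 cells with all 7 lay outside it.

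After thinning each cell to 262436 reads, which 724 kept cells and 102 members could provide, the medians were 4 in the other kept cells, 5 with 2 rule genes, 8 with 3 and 27.5 with at least 4. At least 10 of the 108 genes were detected in 14 of 14 cells with at least 4 rule genes, 22 of 90 with 2 rule genes (24.4%) and 86 of 695 other kept cells (12.4%). At least 20 were detected in 10, 1 and 1 of these cells. The plot of neuronal genes by number of rule genes shows the step after 3 rule genes, with both kinds of plate represented above it.

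**Figure D2:**
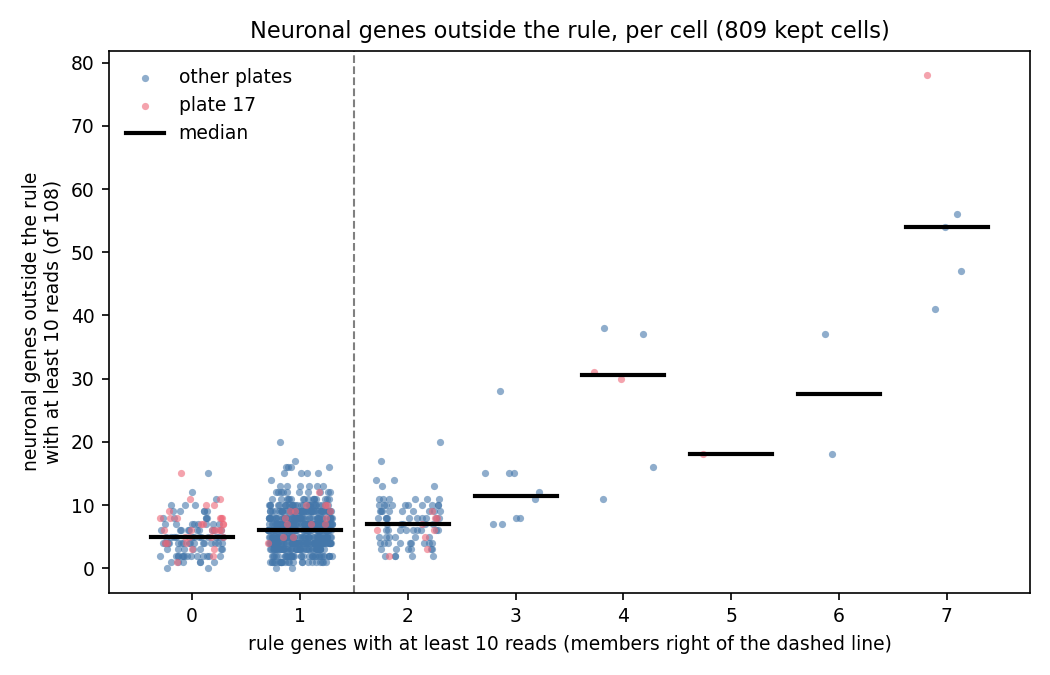
Number of neuronal genes outside the rule detected per kept cell (of 108, vertical axis) against the number of rule genes detected (horizontal axis, jittered); points are cells, coloured by plate 17 or other plates, and bars are medians. The medians are 5, 6, 7 and 11.5 from 0 to 3 rule genes and 54 at 7, and the dashed line separates the members on its right.

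elav, the RNA-binding protein gene used as the standard neuronal marker, did not separate members from other kept cells. Its thinned share was 37.5% in the members and 36.4% in the other cells of plate 17, and 25.5% in both groups on the other plates. In cells with at least 4 rule genes it was 75.0%, against 26.0% in all other kept cells. elav and the rule gene fne are related in sequence, and their reads may be split between them. Unthinned, elav was detected in 11 of these 14 cells and was absent at 10 reads from P17C2, P10A11 and P14C10.

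The transcript estimates deposited for each cell showed where the Syt1 reads lay. Syt1 (FBgn0004242, BDGP6, minus strand) lies at chr2L:2772327-2799979 and has 8 transcripts, of which FBtr0332220 is 6857 bases long. The bases found in that transcript alone form 1 exon of 600 bases at chr2L:2789347-2789946, of which 573 are annotated as 3′ UTR, and the other 7 transcripts span it as intron. In the 90 members with 2 rule genes, 99.9% of Syt1 reads were assigned to FBtr0332220, as were 99.8% in cells with 1 rule gene and 98.5% in cells with none. In cells with at least 4 rule genes this share was 60.4%, and in the 5 cells with all 7 it was 47.4%.

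At least 10 reads on the other Syt1 transcripts were present in 8 of 14 cells with at least 4 rule genes and in 5 of 5 cells with all 7. They were present in 1 of 10 cells with 3 rule genes, in 0 of 90 with 2 (which allows a share of up to 3.33%) and in 1 of 695 other kept cells. The Syt1 reads by which most members met the rule were thus of the same transcript as those in cells outside the rule. An overlapping noncoding gene, lncRNA:CR43821, shares none of the 600 bases. Where the reads of FBtr0332220 came from, spliced mRNA or other RNA, was not tested.

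The same was examined for elav. Its transcript FBtr0307173 at chrX:509235-523226 (BDGP6, minus strand) has a 3′ UTR of 8557 bases, and its 7615 own bases are all annotated as 3′ UTR, 3169 of them shared with exons of other genes (arg and lncRNA:enrr), so reads there cannot be given to elav with certainty. This transcript took 86.1% of elav reads in cells without rule genes, 85.4% with 1, 66.7% with 2, 45.0% with 3 and 50.4% with at least 4. The reads of brp, nSyb, Rdl and cac were not confined to 1 transcript in members with 2 rule genes. There the leading transcript took 25.4% of brp reads, 26.1% of nSyb, 39.4% of Rdl and 41.8% of cac. These values do not cover the rule genes fne and para.

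**Figure D3:**
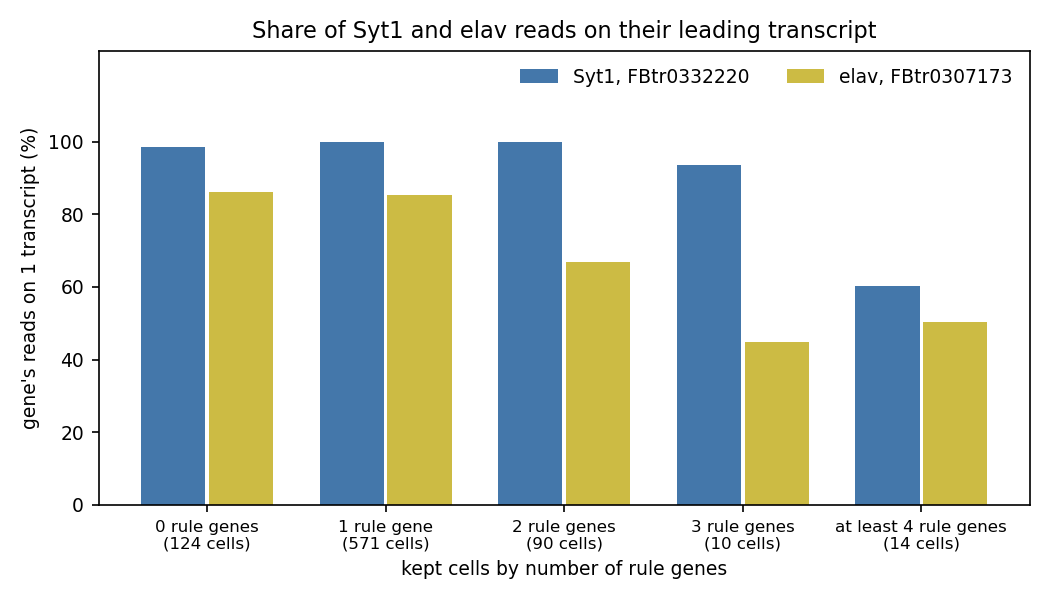
Share of the estimated reads of Syt1 (blue) and elav (yellow) assigned to their leading transcript (percent, bars from 0), in kept cells grouped by the number of rule genes. The Syt1 bar stays at or above 93.5% up to 3 rule genes and is at 60.4% with at least 4.

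The 14 cells with at least 4 rule genes, a cut added after seeing the data, were described by the roles of their genes. A gene was called higher when its thinned share was at least 25% in these cells and at least 2 times that in the other kept cells, and lower when at least 25% of the other kept cells had it and the share in these cells was at most 0.5 times that. By this rule of size 14.8% of the 8821 genes tested were called higher and 3.28% lower, over 12 thinned cells against 622. Plates were pooled, and plate 17 gave 3 of the 12 cells and 33 of the 622. Among the neuronal lists, 57 of the 108 genes outside the rule were called higher and 0 lower. Their median share was 25% against 0.322% in the other kept cells.

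Of the vesicle release genes 16 of 25 were called higher. Rim, which organises the active zone, had a thinned share of 75.0% against 2.25%, and unc-13, which primes vesicles, 75.0% against 9.33%. Rab3, the GTPase of synaptic vesicles, was at 50% against 1.13%. stnB, a gene of vesicle recycling, was at 41.7% against 0.161%. The reads of Rab3 were 355 in P11A4, 39 in P14A10, 116 in P15C7, 365 in P17E1 and 504 in P3A5, and 4038 in P6E6. Snap25, a target SNARE, was detected in 4 of the 14 cells only, all with 7 rule genes, at 12 to 45 reads.

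Of the channel genes 15 of 20 were called higher. The calcium-activated potassium channel slo was at 66.7% against 1.77%, and the Shaker potassium channel Sh at 50% against 3.05%. na, which encodes the sodium leak channel, was at 41.7% against 0% of 622 cells, with 2 of 695 unthinned. nrv3, a beta subunit of the sodium pump, was at 58.3% against 9.97%. All 5 cells with 7 rule genes had Sh, with 251 to 1389 reads, and the channel genes detected in them numbered 12 to 17 of 20. tipE, an auxiliary protein of the para channel, had 32 reads in P11A4, 72 in P15C7 and 64 in P17E1, and was not detected in P14A10 and P3A5.

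Of the receptor genes 16 of 25 were called higher, with a median thinned share of 25% against 0.161%. GluClalpha, a glutamate-gated chloride channel, and Nmdar2, an NMDA-type glutamate receptor subunit, were each at 50%, against 0.161% and 0.322%. The nicotinic acetylcholine receptor subunit nAChRalpha6 was at 41.7% against 0.804%, and the dopamine receptor Dop1R1 at 33.3% against 0% (0 of 695 unthinned cells, which allows a share of up to 0.432%). nAChRalpha6 had 174 reads in P11A4, 489 in P14A10, 120 in P15C7, 468 in P17E1 and 309 in P3A5. The cells with 7 rule genes had 11 to 21 receptor genes each, whereas no kept cell outside the members had more than 2.

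Transmitter genes differed from cell to cell. Gad1, which makes GABA, had 1712 reads in P11A4, 782 in P17C2, 116 in P17E1, 71 in P15C7, 58 in P17A9 and 18 in P2C11, and P11A4 also had 189 reads of the vesicular GABA transporter VGAT. ChAT and VAChT, which make and load acetylcholine, had 124 and 81 reads in P3A5, 121 and 82 in P17E1, and 56 and 124 in P13E12. ChAT without VAChT was detected in P17A9, at 138 reads, P14C10, at 34, and P15C7 and P2C11, at 13 each. P13E12 had 440 reads of the monoamine transporter Vmat and 130 of ple, tyrosine hydroxylase, and P3A5 had 91 of VGAT and 576 of the dopamine transporter DAT. Genes of more than 1 transmitter were thus detected in P3A5, P13E12, P14C10 (which also had 31 reads of the serotonin transporter SerT), P15C7, P17A9, P17C2, P17E1 and P2C11. Over the list, 4 of 14 transmitter genes were called higher (ChAT, VAChT, Gad1 and Ddc).

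The vesicular glutamate transporter VGlut, which marks the glutamatergic motoneurons of flies, was detected in 0 of 809 kept cells, which allows a share of up to 0.371%, and its highest count in the 24 cells with at least 3 rule genes was 3 reads. Among 14 motoneuron subtype genes 1 was called higher (Lim3, 25% against 5.63%) and 1 lower (zfh1, 25% against 55.3%) in cells with at least 4 rule genes. Of all genes tested, 14.8% were called higher and 3.28% lower in these cells. eve, a factor of dorsally projecting motoneurons, was detected in 2 of these 14 cells.

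Of a further list of axon and synapse genes, not among the 108, 18 of 25 were called higher. Nrx-1, a presynaptic adhesion protein, was at 58.3% against 2.25%, futsch, a microtubule-associated protein of axons, at 58.3% against 0.804%, and jeb, a secreted ligand, at 58.3% against 0.161%. Of 50 immunoglobulin recognition genes, mostly of the dpr, DIP and beat families, 17 were called higher. P17E1 had 36 of these 50 genes, the other cells with 7 rule genes had 13 to 19, and no kept cell outside the members had more than 8. The members of the dpr family are alike in sequence, so reads may be split between them.

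Hox genes, which mark position along the body and were amplified with added primers, were not shared by these cells. P11A4 had 70 reads of Antp, 180 of Ubx, 155 of abd-A and 33 of Abd-B, and P15C7 had 182 of Ubx, 465 of abd-A and 75 of Abd-B. No Hox gene had a read in P3A5 or P14A10. Of the 7 Hox genes only Ubx was called higher, at 25% against 4.502%, where 14.8% of all genes tested were. A share of 25% is the least that the rule of size accepts.

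A different set of genes stood out in 7 members, chosen after their values were seen. The enzymes amon, Phm and Pal2, which cut and amidate neuropeptides, were all detected in P11A4, P17E1, P17A9, P2C11, P6E6, P2B12 and P5D8, and in 0 of 695 other kept cells (which allows a share of up to 0.432%). P6E6 had 3982 reads of amon, 3484 of Phm and 15846 of Pal2, and P2C11 had 1607, 1811 and 2786. Phm alone was general, with 53.2% of the other kept cells, while amon was detected in 5 and Pal2 in 3 of those 695. Members with 2 rule genes held 0 such cells, those with 3 held 2 of 10, and those with at least 4 held 5 of 14.

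Of these 7 cells, P11A4 and P17E1 had all 7 rule genes and 14 and 21 receptor genes. The other 5 had 0 or 1 receptor gene. para had 52 reads in P17A9 and 0 in P2C11, P6E6, P2B12 and P5D8. nSyb was present in all 7 cells, with 27 to 640 reads. Sytalpha, a further synaptotagmin, had 655 reads in P17A9, 210 in P2C11, 3836 in P6E6, 12 in P2B12 and 579 in P5D8, and 0 in P11A4 and P17E1. In the plot of receptor against peptide genes, P11A4 and P17E1 lie apart from the other 5 on the receptor axis only. Their peptide genes numbered 4 and 6, against 5 to 7 in the other 5. The peptide axis includes amon, Phm and Pal2, by which these 7 cells were chosen.

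**Figure D4:**
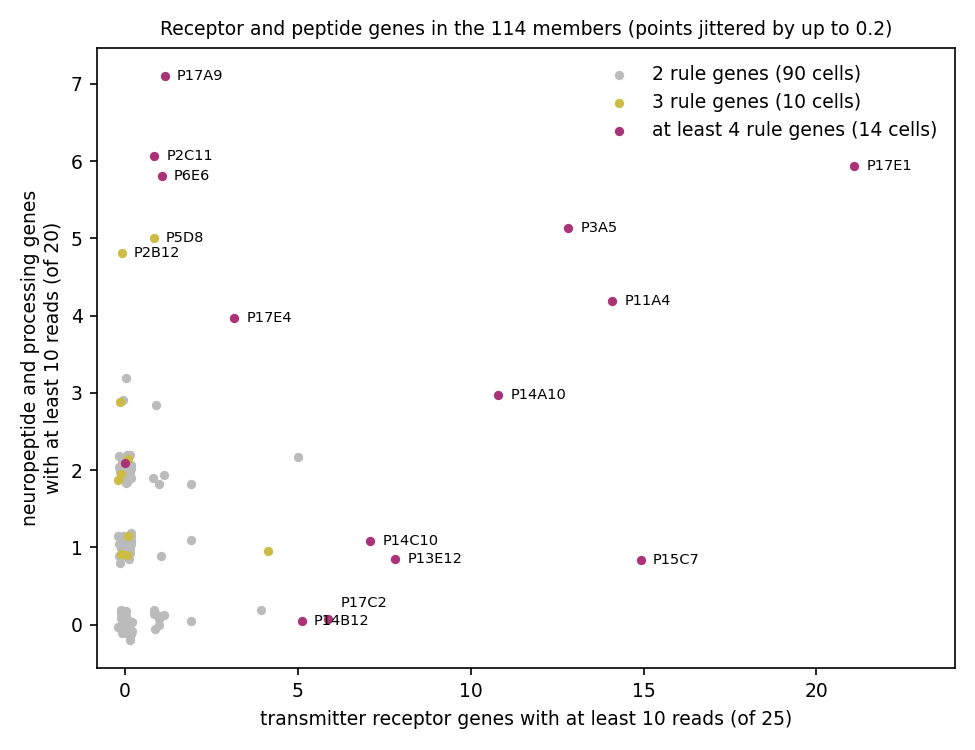
Neuropeptide and processing genes detected per member (of 20, vertical axis) against transmitter receptor genes detected (of 25, horizontal axis), for the 114 members; points are cells, shifted by up to 0.2 on both axes, coloured by the number of rule genes. P17A9, P2C11 and P6E6 have 6 or 7 peptide genes and 1 receptor gene, while P17E1 has 21 receptor genes and most members lie near 0.

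Peptide precursors differed between these cells. P17A9 had 4905 reads of Tk, tachykinin, P2C11 had 1058 of sNPF, short neuropeptide F, and P6E6 had 116 of CCAP. CCAP was higher, at 997 reads, in P10D11, a cell outside these 7 with 617 reads of pros and 0 of nSyb. Both Tk and sNPF are made in the brain and in endocrine cells of the fly gut. P11A4 had 454 reads of Proc, proctolin, a peptide of some neurons that act on muscle. pros, a transcription factor of differentiating neurons and of gut endocrine cells, had 213 reads in P17A9, 449 in P2C11, 3977 in P6E6, 17 in P2B12 and 137 in P5D8. Among the other cells with at least 3 rule genes, pros had 617 reads in P10D11, 75 in P13E12, 32 in P14C10, 30 in P17E4 and 11 in P17E1. GATAe, a transcription factor of the midgut, had 508 reads in P6E6, 41 in P2C11 and 11 in P5D8, but also 387 in P10A11, 264 in P14D9 and 65 in P17E1. mex1, a gene of midgut cells, had 741 reads in P6E6, 155 in P2C11, 68 in P17A9 and 16 in P5D8. Of the 7 midgut genes, 2 were detected in P2C11, P6E6 and P5D8, 1 in P17A9 and 0 in P2B12, and the digestive enzyme genes alphaTry, betaTry and Jon65Aiv had 0 reads in these 5 cells. The summed level of the 7 genes had a median of 39.7 CPM (0 to 618) in cells with at least 4 rule genes and 0 CPM (0 to 13734) in the other kept cells. The part of this class in the result was not tested.

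Most members carried Syt1 and 1 other rule gene, and they were compared with the other kept cells by the same rule of size. In these 81 members, 0 of the 108 neuronal genes were called higher and 0 lower against the other kept cells, where 0.0113% of all genes tested (1 of 8821, the tyrosine kinase gene FER) were called higher and 0.306% lower. The thinned share of slo was 5.19% against 1.77%, of Rim 2.60% against 2.25%, of ChAT 0% against 0.482% and of elav 20.8% against 26.0%. Of the neuronal genes, 53 had a higher share than in the other kept cells, 36 a lower one and 19 the same, and the median share was 1.30% against 0.322%. P6G7, with 54 reads of Syt1 and 13 of brp, had the most of any cell with 2 rule genes, 20 neuronal genes, 5 of them receptors.

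Because cells were sorted by Mhc-driven GFP, contractile genes were compared within plate 17 and within the other plates. On plate 17 Mhc was detected in 9 of 13 members (69.2%, 38.6 to 90.9) and in 23 of 48 other cells (47.9%, 33.3 to 62.8). On the other plates it was detected in 14 of 101 members (13.9%, 7.79 to 22.2) and 63 of 647 other cells (9.74%, 7.56 to 12.3). The intervals of members and other cells, which cover counting error only, overlapped in both. Of the 24 contractile genes, members of plate 17 had a median of 10 per cell (7 to 20) against 9 (1 to 21), and members of the other plates had 3 (0 to 21) against 2 (0 to 22).

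**Figure D5:**
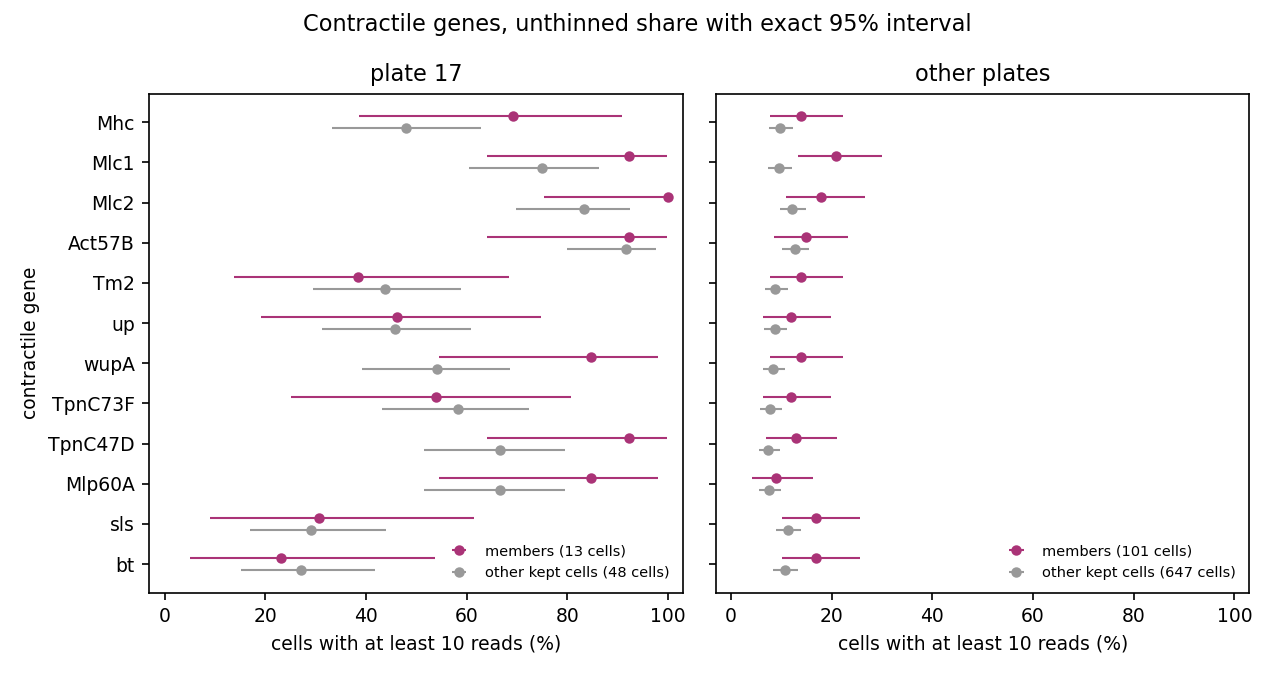
Unthinned share of cells in which each of 12 contractile genes was detected (percent, horizontal axis), in members (purple) and other kept cells (grey) of plate 17 (left) and of the other plates (right); points are shares and lines exact 95% intervals. The shares follow the plate more than the membership, with Mhc at 69.2% and 47.9% on plate 17 and 13.9% and 9.74% elsewhere.

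The plot of contractile genes shows a wider gap between plates than between members and other cells. Mlc1, a myosin light chain, had the widest unthinned gap of the 24 genes on the other plates, with 21 of 101 members (20.8%, 13.4 to 30.01) and 62 of 647 other cells (9.58%, 7.43 to 12.1). It was picked as the widest, and the gap was not tested. Members there were also deeper, with a median of 1045769 reads against 794860. On plate 17 Mlc2 was detected in 13 of 13 members and 40 of 48 other cells, and TpnC47D, a troponin C, in 12 of 13 and 32 of 48. After thinning, Mlc1 on the other plates was at 14.9% against 8.32%, and 0 of the 24 genes were called there, where 0.102% of all genes were called higher. On plate 17, where 11.2% were, 4 of the 24 were called higher (bt, Mlp84B, Zasp52 and Strn-Mlck) and 0 lower. The thinned share was higher in members for 21 of the 24 genes on plate 17 and for 21 on the other plates.

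Contractile and neuronal genes occurred together in some cells. At least 10 genes of each list (the neuronal list again without the rule genes) were detected in 6 of 14 cells with at least 4 rule genes (42.9%, 17.7 to 71.1), 5 of 90 with 2 (5.56%, 1.83 to 12.5) and 25 of 695 other kept cells (3.60%, 2.34 to 5.26). All 14 had at least 10 neuronal genes, so their count rests on contractile genes alone. At least 10 contractile genes, whatever the neuronal count, were found in 11 of 90 and 66 of 695 cells (12.2% and 9.50%). Plates were pooled here. By plate, 3 of 4 cells with at least 4 rule genes had them on plate 17 and 3 of 10 elsewhere. Of the other kept cells, 18 of 48 and 48 of 647 did. The 6 of the 14 cells with both were P17E1 and P17E4, with 20 contractile genes each, P14B12 with 14, P13E12 and P14C10 with 12 each, and P17C2 with 11. P17E1 had 314 reads of Mhc, P14B12 334, P17E4 137 and P14C10 121. In P13E12, with 6 reads, and P17C2, with 5, Mhc was below the 10 reads for detection. P17E1 and P17E4 had 4247 and 4094 genes with at least 10 reads, against a median of 1638 in all kept cells.

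Other cells with at least 4 rule genes had fewer contractile genes. P3A5 had 0 of the 24 contractile genes, P11A4 1, P15C7, P2C11 and P6E6 2 each, and P14A10 and P10A11 4 each. Mhc had 0 reads in all 7 of these cells. P17A9, the remaining cell with at least 4 rule genes, had 7 contractile genes and 42 reads of Mhc. P10D11, with 3 rule genes, had 18 contractile genes and 2431 reads of Mhc. Among cells with 2 rule genes, 11 of 90 had at least 10 contractile genes, and P10E9 had 8338 reads of Mhc beside 128 of Syt1 and 39 of nSyb. Whether wells with both sets held more than 1 cell was not tested, and no doublet caller was run.

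Over the 14 cells with at least 4 rule genes, 14 of 24 contractile genes were called higher, against 14.8% of all genes. Plates were pooled here, with plate 17 giving 3 of the 12 thinned cells but 33 of the 622 others. A gene detected only in those 3 cells would reach the 25% of the rule. The part of plate in these calls was not tested. Mhc was at 41.7% against 8.68%, and bt, which encodes a giant protein of the sarcomere, at 50% against 10.3%. Split by plate, Mhc was detected in all 3 thinned cells of plate 17, where 52.5% of all kept cells had it unthinned, and in 2 of 9 on the other plates (22.2%). Of 7 genes of the postsynaptic side of the neuromuscular junction, none of the 5 GluRII subunits reached 25%, and dlg1, a scaffold on both sides of the synapse, was at 58.3% against 22.4%.

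Markers of other cell classes moved with the members in part. On the other plates 5 of 8 fat body genes had a lower thinned share in members, 1 a higher one (Lsp2, 1.06% against 0%) and 2 were equal at 0, and the median share was 19.1% against 38.6%. apolpp, the main lipoprotein, was detected in 25 of 101 members (24.8%, 16.7 to 34.3) and 285 of 647 other cells (44.0%), Adh in 26.7% against 47.6%, and only Lsd-1, a perilipin of lipid droplets, was called lower (0.612% of all genes were), with thinned shares of 14.9% against 31.7%. The summed level of the 8 fat body genes had a median of 249 CPM (0 to 34656) in members and 792 CPM (0 to 48269) in other cells of these plates. Lsp1beta was not detected in any kept cell. Its part in the result was not tested.

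Hemocyte genes did not move together. Of 12 genes on the other plates, 7 had a higher and 5 a lower thinned share in members, with 0 called. Pxn, peroxidasin, a matrix enzyme of hemocytes, was at 36.2% against 23.8%, whereas srp, the GATA factor of blood and fat body, was at 57.4% against 68.6%. The summed level of the 12 genes had a median of 16011 CPM (0 to 290376) in members and 29498 CPM (0 to 243718) in other cells. In the 14 cells with at least 4 rule genes it was 355 CPM (0 to 74159). Of the cells with 7 rule genes, P14A10 had 10 of 12 hemocyte genes, 84079 reads of Nplp2 and 2305 of Pxn beside 447 of para, and 2717027 reads in all. P17E1 had 5 of the 12 genes, with 4207 reads of Nplp2, 862 of Col4a1 and 0 of Pxn, and P3A5, P11A4 and P15C7 had 0.

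In cells with at least 4 rule genes srp (33.3% against 69.3%), Col4a1 (33.3% against 73.2%), apolpp (8.33% against 45.3%), Lsd-1 (0% against 32.2%) and Lsd-2 (25% against 73.0%) were called lower. Of all genes tested, 3.28% were called lower and 14.8% higher in these cells. Of 10 glial genes 1 was called higher (nrv2, 50% against 11.9%) and 1 lower (mdy, 0% against 35.0%) in cells with at least 4 rule genes, and Gs2, glutamine synthetase, was at 41.7% against 55.0%. nrv2 was on the channel list too and is counted there as well. repo, the defining factor of glia, was detected in P13E12 alone, with 227 reads, among all 809 kept cells. Of 7 midgut genes 4 were called higher on plate 17 (mex1, GATAe, alphaTry and Jon65Aiv), against 11.2% of all genes, and mex1 was detected in 5 of 13 members and 3 of 48 other cells there. Elsewhere 0 of the 7 were called, against 0.102% of all genes called higher. Of 14 stress genes 0 were called on the other plates. On plate 17, where 4.66% of all genes were called lower, Hsp68 (12.5% against 36.4%) and Hsp70Bb (12.5% against 30.3%) were called lower, 8 of the 14 had a lower share in members, and the median share was 12.5% against 33.3%. The Hsp70 genes are near-identical copies, so their reads may be split.

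Depth and ribosomal RNA were compared because detection depends on both. Members of plate 17 had a median of 308936 reads (173768 to 743755) against 360612, and 43.2% of ribosomal RNA against 27.0%. Members of the other plates had 1045769 reads (98988 to 5992872) against 794860, with 34.5% and 35.3% of ribosomal RNA. The 14 cells with at least 4 rule genes had a median of 638336 reads. The medians were 373370 reads in cells without rule genes, 874084 with 1, 991119 with 2 and 1292570 with 3, so depth was higher from 0 to 3 rule genes and lower with at least 4. P11A4, with all 7, had 177744 reads. The part of depth in the share of members was tested only by the thinning before the rule given above.

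Across all genes the plates gave different pictures. On plate 17, where 8 members and 33 other cells could be thinned and 1 member is 12.5%, 986 of 8821 genes were called higher (11.2%) and 411 lower (4.66%). The 8 include P17E1 and P17E4, with 4247 and 4094 genes against a median of 1219 in the members of this plate. Together these cells reach the 25% of the rule, so calls of higher on plate 17, also within the lists, can rest on them alone. On the other plates, with 94 members and 589 other cells, 9 genes were called higher (0.102%) and 54 lower (0.612%). Of the neuronal genes outside the rule, 20 of 108 were called higher on plate 17 and 1 on the other plates, which was bru3, an RNA-binding protein of the Bruno family (29.8% against 10.9%). Of the 9 genes higher on the other plates 4 were also higher on plate 17 (44.4% of the 9 and 0.406% of the 986), and of the 54 lower genes 8 were (14.8% and 1.95%). The rule genes were left out of these counts.

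The genes with the largest differences outside the lists were as follows. On plate 17 the postsynaptic scaffold gene Prosap was detected in 100% of thinned members against 21.2%, Ssk, a septate junction gene of the gut, in 87.5% against 30.3%, and CG33127 in 62.5% against 0%, while nes, a lipid acyltransferase gene, was at 0% against 51.5% and CG42837 at 25% against 75.8%. Unthinned, Prosap was at 76.9% against 37.5% and nes at 30.8% against 45.8%. On the other plates Rab14, a GTPase of endosomes, was at 60.6% against 38.0% and msi, the RNA-binding protein Musashi, at 48.9% against 28.4%, without meeting the rule of size. Obp99c, a gene of the odorant-binding protein family (19.1% against 43.1%), and CG33493 (21.3% against 45.3%) met it as lower. ND-B14.5B, a subunit of respiratory complex I, had the most negative difference there, 36.2% against 63.3%.

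In cells with at least 4 rule genes the differences outside the lists were larger. IA-2, a protein of dense-core vesicles, was detected in 83.3% of thinned cells against 2.73%, unc-104, the kinesin that carries synaptic vesicle precursors, in 66.7% against 2.41%, and Lar, a receptor phosphatase of axons, in 66.7% against 5.79%. Pde1c, a phosphodiesterase, was at 66.7% against 5.63%. The 3 laminin chains of the basement membrane were lower, LanA at 33.3% against 82.0%, LanB1 at 33.3% against 80.9% and LanB2 at 25% against 75.4%. For the members with Syt1 and 1 other rule gene, the largest differences were Rab14 again (61.0% against 39.5%) and, as lower, ND-B14.5B (35.1% against 62.9%).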

How the data were processed

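Single cells of 1 sorted group were profiled by Smart-seq2. The authors demultiplexed the reads, trimmed poly-A tails and pseudo-aligned to the BDGP6 Ensembl cDNA with kallisto. The submitters' processing notes name kallisto 0.43.0 and R 3.5.1, and the Ensembl release is not given in the sources used here. The deposited values are estimated counts made by the authors in this way, as whole numbers for 8862 genes in a series table and per transcript for each cell. The values are not normalised. The transcript counts were summed to genes with Ensembl release 115. For the 8762 genes with such a sum, 99.953% of values lay within 0.51 reads of it. The cell filter was the study's. The stated gene filter does not give exactly the genes of the table.

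Python 3.11.15 with numpy 2.4.6, pandas 2.3.3, scipy 1.17.1 and matplotlib 3.10.9 was used. Of 320 list genes, 242 were in the series table, 73 were taken from the cell files and 5 matched nothing. Cells were thinned by drawing 262436 reads without replacement. This depth is the 10th percentile over members, and 85 kept cells were shallower. Genes with 10 reads in at least 5 kept cells were compared by the rule of size (8828, or 8821 without the rule genes), and the step was checked on simulated data. With 1 sample no p-value was computed. No cells had identical counts. No doublet caller was run. Any gene of the fixed lists could be named, and outside the lists the 10 most positive and 5 most negative differences of a comparison, of which some are given. Members and lists were chosen with earlier results of these data known. Thinning, thresholds, the filters, the number of rule genes and the plates were varied.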

Additional observations from a re-analysis of the deposited data

Results flagged for a closer look

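Of the 28 cells below the filter of 500 genes, which enter no comparison above, 5 met the rule on neuronal transcripts. P14F6 had 431 genes with at least 10 reads and 4 rule genes (Syt1, brp, para and fne), with 8 of the 108 other neuronal genes. The others, P10A9, P12A6, P14G11 and P16C9, had 2 rule genes each, Syt1 among them.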

How the results depend on the processing

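The share of members on plate 17 was 21.3%, and 41.0% with a threshold of 5 reads, 9.84% with 20 reads, 6.56% with 3 rule genes, 9.76% after thinning before the rule and 6.56% with 4 rule genes. On the other plates it was 13.5%, and 23.5%, 8.96%, 2.67%, 4.83% and 1.34% in that order, 3.07% without Syt1, and 11.8% to 14.1% when 1 plate was left out. elav in the members of the other plates, 25.5%, was 35.6% without thinning, 44.7% with 1 read, 7.45% with 50 reads and 77.8% in members with 4 rule genes. With only members with 4 rule genes, Mhc was at 100% on plate 17 and 22.2% elsewhere, and on the other plates Pxn was at 22.2% and apolpp at 0%. When 1 plate was left out, Mhc in the members of the other plates was 8% to 12.5%. Genes called higher on plate 17, 986, were 560 with a ratio of 3, 481 without ribosomal RNA, 303 without thinning and 2620 with 3 rule genes, and genes called lower, 411, were 153 with a ratio of 3. On the other plates 9 higher genes became 0 with a ratio of 3 and 376 with 3 rule genes, and 54 lower ones became 3 and 235. The cause of these changes was not tested, except that fewer cells or a stricter ratio enter by construction. Of 92 alternatives 64 left the value within 1 SD, the interval or 1.5 times and 28 did not, and leaving out 1 plate moved none of 28. The rule without Syt1 and the cuts at 4 rule genes and at Syt1 with 1 other gene were chosen after seeing the data. No paired analysis was possible because all cells share 1 group. Depth limits plate 17 most, where 5 of 13 members could not be thinned.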
